A study of Mus musculus with 20 samples.

Results

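The genes described here encode the subunits of TRiC (also called CCT), the chaperonin of the cytosol: Tcp1, Cct2, Cct3, Cct4, Cct5, Cct6a, Cct7 and Cct8. They were taken by symbol as a fixed list of 8 genes among the 55487 genes of the count table, and all 8 were matched and passed the low-count filter in every comparison. RNA was sequenced at postnatal day 1 from mouse subcerebral projection neurons, the cortical neurons whose axons reach brainstem and spinal cord. The 4 groups had 5 libraries each: somata (cell bodies) from cortex and growth cones (the tips of growing axons) from brainstem and spinal cord, each labelled either wild-type (WT) or Bcl11b KO, a null for a transcription factor gene of these neurons. The labels give no strain, promoter, Cre, sex or number of animals per library. Nothing in them says that libraries of a group came from separate animals, so p-values measure the spread between libraries, which may be partly technical.

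TRiC is built as a pair of stacked rings, each ring holding 1 copy of every subunit. It takes in unfolded proteins and closes over them with a built-in lid as ATP is hydrolysed. Actin and tubulin, the building blocks of the growth cone cytoskeleton, are its best known clients. All subunits are needed for a ring and each has its own place in it. Cct2, Cct4, Cct5 and Cct7 are the subunits known for strong ATP binding, while Tcp1, Cct3, Cct6a and Cct8 bind ATP more weakly. Prefoldin, a smaller complex, hands new actin and tubulin chains to TRiC, and phosducin-like proteins dock on TRiC and modulate its folding.

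Total counts per library spanned 18962308–36059112 (WT somata), 35243688–51205154 (KO somata), 26382991–29323028 (WT growth cones) and 21657575–27723067 (KO growth cones). The 8 genes were well counted: the lowest raw count of any subunit in any library was 1891, for Cct3 in a growth cone library. The targeted gene went against its label in somata: Bcl11b was at 700 ± 130 CPM (counts relative to the library total, scaled by TMM; SD, n = 5) in WT and 1151 ± 56.6 CPM (SD, n = 5) in the libraries labelled KO, a log2 difference of 0.74 (p = 0.00794 by a two-sided exact permutation of the labels, the lowest p that 5 against 5 can give). In growth cones it was at 101 ± 19.3 CPM in WT and 102 ± 35.0 CPM in the libraries labelled KO (exact permutation p = 0.944). Whether the null allele removes exons that were counted is not given in the labels, so genotype directions below refer to the labels only. Several marker lists of other tissues and cell types were more abundant in growth cone libraries. A list of 14 hindbrain and spinal cord Hox genes summed to 72.6 to 245 CPM in growth cones and 0.0 to 0.22 in somata. The 10 astrocyte markers summed to 724 to 1152 against 25.7 to 269 CPM. For 10 oligodendrocyte markers the sums were 532 to 2219 against 66.3 to 129 CPM. For 11 vessel and blood markers they were 267 to 598 against 0.683 to 73.5 CPM. Lists of other neurons were also higher. The 8 callosal markers summed to 1129 to 1436 against 325 to 493 CPM, and the 9 interneuron markers to 628 to 1022 against 122 to 545 CPM. In WT growth cones, 6 callosal markers were called higher and 1 lower, and 8 interneuron markers higher and 0 lower. Markers of subcerebral neurons, 13 genes, were instead less abundant in growth cones, at 721 to 1182 against 2539 to 3240 CPM. Of the 14 Hox genes, 6 were at 0 in every WT soma library and 9 in every KO soma library, and 0 were at 0 in all growth cone libraries. In WT growth cones, 9 of 10 astrocyte and 7 of 10 oligodendrocyte markers were called higher, where 23.1% of all genes tested were called higher and 19.7% lower. Of the 13 subcerebral markers, 8 were called lower and 2 higher. Of 10 microglia markers, 8 were tested and 1 was called higher, and their sums overlapped, at 25.1 to 135 CPM in growth cones and 5.08 to 127 CPM in somata. The part of these RNAs in the compartment results below was not tested.

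Most subunit RNAs were lower in growth cones than in somata, and Cct2 was the exception. In WT, 7 of the 8 genes fell (edgeR quasi-likelihood test, false discovery rate, FDR, 0.05), where 19.7% of all 15128 genes tested were called lower. In the libraries labelled KO the same 7 genes fell, where 17.0% of 15410 genes were called lower. The median log2 fold change of the 8 genes was -2.04 in WT and -1.80 in KO, against 0.07 and 0.11 for all genes tested. Together the 8 genes made up 5466 ± 523 CPM in WT somata and 1617 ± 104 CPM in WT growth cones, and 5473 ± 581 and 1678 ± 177 CPM in the libraries labelled KO (SD, n = 5 each). The 7 genes that fell were also those in which no growth cone library reached the lowest soma library, as was so for 18.1% of all genes in WT and 19.0% in KO. Tissue, RNA input (1.8 to 3.1 ng for somata, 0.19 to 3.1 ng for growth cones) and experiment numbers differ between compartments and cannot be told apart from the compartment. In such bulk samples, a smaller share of these neurons' RNA and less subunit RNA per neuron cannot be told apart either.

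Cct2, an ATP-binding subunit linked in people to a retinal dystrophy, was called in neither genotype. It stood at 240, 194, 252.2, 271 and 269 CPM in the WT somata of experiments 12, 14, 22, 25 and 26. WT growth cones of experiments 7 to 11 gave 233, 290, 263, 197 and 218 CPM. The 2 sets overlapped along most of their range. The log2 fold change was 0.02 ± 0.14 (SE; 95% interval -0.30 to 0.33; adjusted p = 0.945). In the libraries labelled KO, somata of experiments 14, 15, 22, 25 and 26 gave 207, 223, 281, 236 and 218 CPM, and growth cones of experiments 7 to 11 gave 292, 224, 216, 175 and 214 CPM. Here too the sets overlapped, with a log2 fold change of 0.03 ± 0.15 (SE; 95% interval -0.31 to 0.36; adjusted p = 0.905). Both lower bounds lie above the estimates of the 7 other subunits. The sign of this small difference turned when no low-count filter was used (-0.025 in WT, -0.059 in KO).

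Cct7, likewise a strong ATP binder, was lower in growth cones by a similar factor in both genotypes. WT somata gave 983, 842, 1038, 985 and 1101 CPM, and WT growth cones 242, 205, 257, 169 and 163 CPM. Every growth cone library was below every soma library, by 4.62-fold in the fit (log2 fold change -2.21 ± 0.16, SE; adjusted p = 9.32e-07). The libraries labelled KO gave 854, 1196, 1180, 1147 and 1061 CPM in somata and 234, 196, 171, 336 and 183 CPM in growth cones, 4.60-fold lower (log2 fold change -2.20 ± 0.19, SE; adjusted p = 6.02e-06). Cct4, whose mutation causes a sensory neuropathy in rats, stood at 581, 446, 477, 490 and 670 CPM in WT somata and at 134, 128, 158, 124 and 126 CPM in WT growth cones. It fell by 1.95 ± 0.14 on the log2 scale (SE; adjusted p = 1.33e-06), and the 5 growth cone values lay close together. KO somata averaged 560 ± 60.6 CPM and KO growth cones 157 ± 47.4 CPM, which gave a log2 fold change of -1.76 ± 0.19 (adjusted p = 3.46e-05). Cct5, mutated in a human sensory neuropathy, had the smallest estimate among these 3. It was at 840, 713, 834, 815 and 816 CPM in WT somata and at 331, 244, 213, 238 and 320 CPM in WT growth cones, 2.88-fold lower (log2 fold change -1.53 ± 0.15, SE; adjusted p = 9.01e-06). KO somata averaged 713 ± 75.1 CPM and KO growth cones 234 ± 38.4 CPM, which gave a log2 fold change of -1.53 ± 0.13 (adjusted p = 6.80e-06).

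Among the weaker ATP binders, Tcp1, the founding member named for the mouse t-complex, had the most negative estimate in WT. It stood at 588, 464, 622, 620 and 710 CPM in WT somata and at 170, 74.4, 117, 127 and 78.0 CPM in WT growth cones. That is 5.13-fold lower (log2 fold change -2.36 ± 0.23, SE; adjusted p = 1.02e-05). KO somata averaged 552 ± 43.9 CPM and KO growth cones 126 ± 25.6 CPM, which gave a log2 fold change of -2.05 ± 0.16 (adjusted p = 2.68e-06). Cct3 stood at 623, 612, 759, 661 and 793 CPM in WT somata and at 106, 232, 132, 102 and 158 CPM in WT growth cones, 4.58-fold lower (log2 fold change -2.19 ± 0.22, SE; adjusted p = 1.08e-05). In the KO growth cones it ranged from 60.5 CPM in experiment 10 to 250 CPM in experiment 7, against 580 to 852 CPM in KO somata, and the log2 fold change was -2.03 ± 0.31 (SE; adjusted p = 0.000311). Cct8 stood at 712, 704, 802, 772 and 915 CPM in WT somata and at 156, 145, 208, 218 and 140 CPM in WT growth cones, 4.36-fold lower (log2 fold change -2.13 ± 0.16, SE; adjusted p = 1.33e-06). In the KO growth cones the library of experiment 8 was at 90.1 CPM and the other 4 at 220 to 270 CPM, and the log2 fold change against KO somata was -1.85 ± 0.25 (SE; adjusted p = 0.000153). Cct6a had the smallest estimate of the 7 genes that fell. It stood at 770, 785, 866, 768 and 926 CPM in WT somata and at 207, 409, 372, 405 and 278 CPM in WT growth cones, 2.39-fold lower (log2 fold change -1.26 ± 0.18, SE; adjusted p = 0.000146). KO somata averaged 805 ± 87.9 CPM and KO growth cones 337 ± 61.9 CPM, which gave a log2 fold change of -1.17 ± 0.15 (adjusted p = 8.30e-05).

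**Figure D1:**
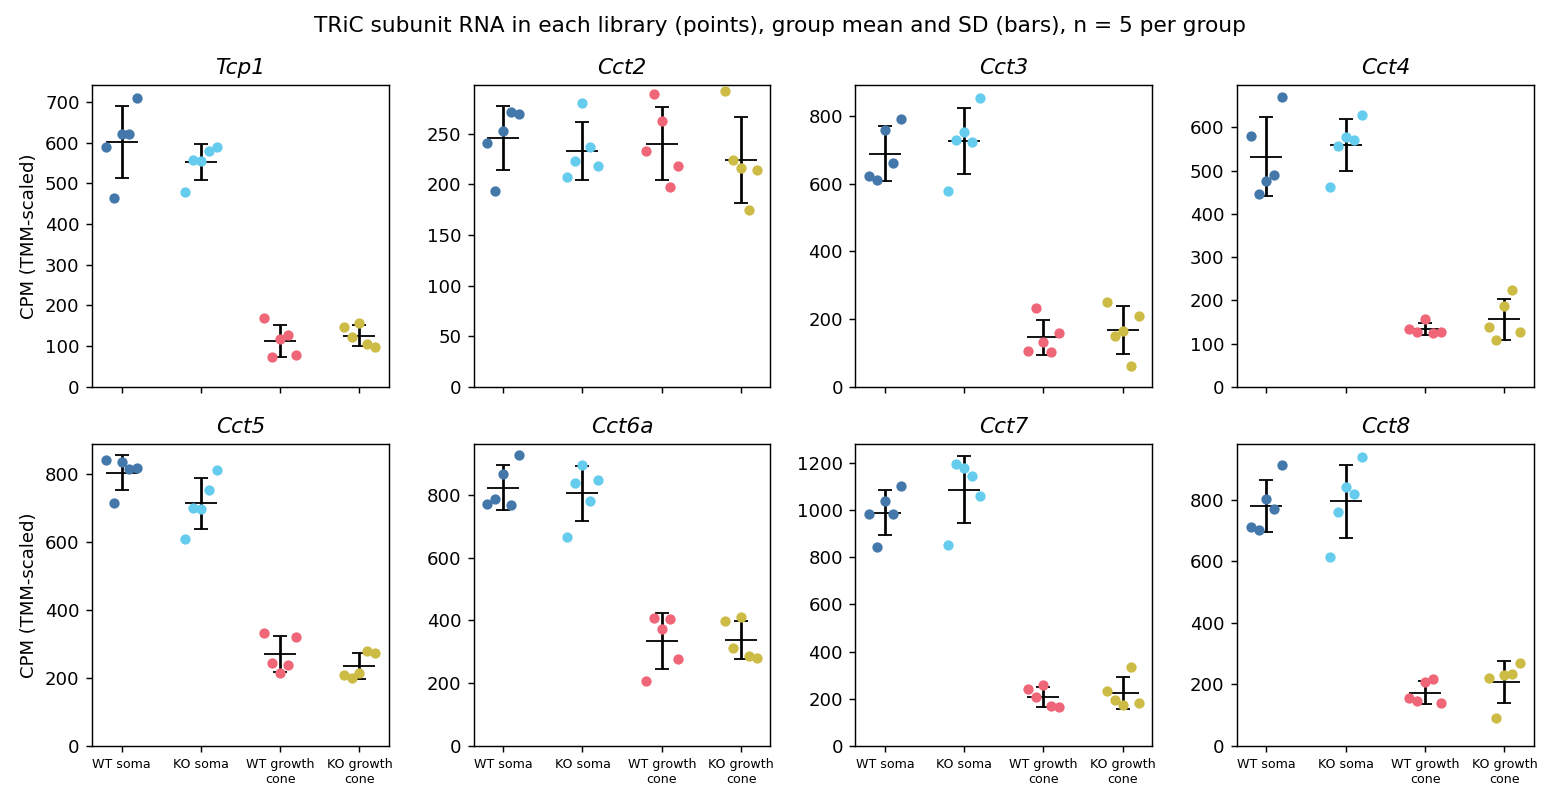
Level of each TRiC subunit gene in CPM (TMM-scaled, linear axes from 0) in every library, by compartment and genotype label; points are libraries in order of experiment number, bars the mean and SD of 5. Cct2 alone overlaps between compartments, at 194 to 281 CPM in somata and 175 to 292 CPM in growth cones, while for the other 7 genes all growth cone points lie below all soma points.

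The scatter between libraries was wider in growth cones. The SD of log2 CPM within a group, as a median over the 8 genes, was 0.16 in WT somata, 0.17 in KO somata, 0.30 in WT growth cones and 0.34 in KO growth cones. Cct8 and Cct3 had wide scatter in the KO growth cones, and no gene had an SD above 0.79 in any group. The 7 declines exceed this scatter, as the tests above show.

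Because the 8 proteins enter the ring in equal number, the RNA of each was also set per kilobase of the deposited gene length. That length is 6778 bases for Cct7 and 2557 for Cct2, although their coding lengths are 1632 and 1605 bases. Coding length gave another order, so the order below holds for the deposited length only. On this scale Cct5, at 291 ± 18.7 CPM per kb, was highest in WT somata, followed by Cct8 at 253 ± 27.7 and Cct6a at 227 ± 19.4 CPM per kb. Cct7 at 146 ± 14.1, Cct4 at 127 ± 21.9, Tcp1 at 119 ± 17.7 and Cct3 at 108 ± 12.8 CPM per kb came next. Cct7 was above Cct4 in every WT soma library, while the order of Cct4, Tcp1 and Cct3 changed between libraries. Cct2 had the lowest mean, at 96.0 ± 12.3 CPM per kb, but not the lowest value in every library. In WT growth cones, Cct5 at 97.4 ± 19.1, Cct2 at 94.0 ± 14.2 and Cct6a at 92.3 ± 24.4 CPM per kb stood at the top and did not differ beyond their spread. Cct8 followed at 56.1 ± 11.9 CPM per kb, and Cct4, Cct7, Cct3 and Tcp1 lay between 31.9 and 22.5 CPM per kb. The order in the libraries labelled KO ran from Cct5 to Cct2 in somata and from Cct6a, Cct2 and Cct5 to Tcp1 in growth cones.

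As a share of the 8-gene total per kb in each library, Cct2 was 7.01% ± 0.545 in WT somata and 20.9% ± 2.35 in WT growth cones (SD, n = 5 each). In the libraries labelled KO its share was 6.80% ± 0.759 in somata and 19.4% ± 3.47 in growth cones. The lowest growth cone share, 14.97%, lay above the highest soma share, 7.85%. Cct8 held 18.5% ± 0.792 of the total in WT somata and 12.5% ± 2.53 in WT growth cones, and Cct7 went from 10.7% ± 0.209 to 6.82% ± 1.23. Cct5 held 21.3% ± 1.31 and 21.9% ± 5.26, a difference within the spread. A share rises when the other parts of its total fall, so the Cct2 share and the declines of the other genes are 1 observation and not separate ones. Without the length scaling the Cct2 share was 4.48% in WT somata and 14.8% in WT growth cones. The order in both compartments depended on the length used. The longest coding length per gene was not defined for Cct6a, which has no coding transcript in the annotation used. By that length Cct7 came first in WT somata, at 606 ± 58.6 CPM per kb, and Cct2 remained last there. In WT growth cones the order by coding length was Cct5, Cct2, Cct7, Cct8, Cct3, Cct4 and Tcp1, and the highest was 2.44-fold above the lowest, against 4.32-fold for the 8 genes by deposited length.

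**Figure D2:**
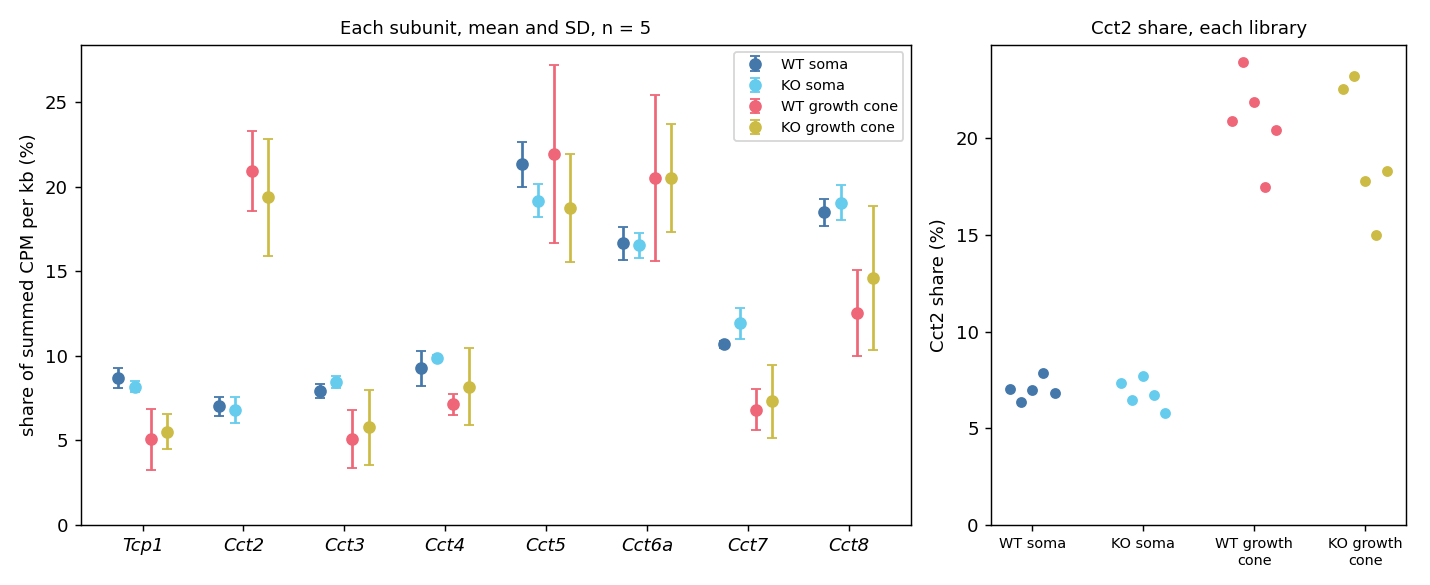
Left, share of each subunit in the 8-gene sum of CPM per kb of deposited gene length (percent, mean and SD of 5 libraries); right, the Cct2 share in each library. Cct2 moves from 7.01% to 20.9% in WT and from 6.80% to 19.4% in the libraries labelled KO.

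The 130 bases before a RefSeq transcription start (GRCm38.p6) are given for Cct2, which was not called, and for Cct3, Cct7 and Cct8, which fell. They are examples: Cct2 has another start that is not shown, and the other genes that fell are not shown. Capitals mark GC boxes (GGGCGG, or CCGCCC on the other strand) and CCAAT boxes (CCAAT, or ATTGG on the other strand). Each is read 5′ to 3′ on the gene's strand, at chr10:117063853-117063982 (minus strand), chr3:88297005-88297134 (plus strand), chr6:85451375-85451504 (plus strand) and chr16:87495870-87495999 (minus strand) in that order.
Cct2: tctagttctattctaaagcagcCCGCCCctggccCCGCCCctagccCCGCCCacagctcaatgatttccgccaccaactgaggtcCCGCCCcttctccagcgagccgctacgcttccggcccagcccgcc
Cct3: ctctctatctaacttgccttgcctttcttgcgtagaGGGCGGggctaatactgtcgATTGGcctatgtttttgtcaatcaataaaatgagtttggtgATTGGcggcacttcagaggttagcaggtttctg
Cct7: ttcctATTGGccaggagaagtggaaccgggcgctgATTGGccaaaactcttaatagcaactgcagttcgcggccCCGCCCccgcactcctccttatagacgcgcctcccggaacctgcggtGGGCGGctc
Cct8: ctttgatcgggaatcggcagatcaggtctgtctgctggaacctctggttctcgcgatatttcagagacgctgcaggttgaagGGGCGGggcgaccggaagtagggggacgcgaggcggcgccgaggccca

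The Cct2 stretch holds 4 GC boxes and 0 CCAAT boxes, that of Cct3 1 GC box and 2 CCAAT boxes, that of Cct7 2 of each, and that of Cct8 1 GC box and 0 CCAAT boxes. Over the full windows (250 bases before to 50 after the start, both strands), 7 of the 8 genes had an entry, with 9 windows in all because Cct2 and Cct5 have 2 each. A GC box was found in 8 of the 9 windows, all but 1 of those of Cct5, against 35.7% of 32851 windows of all genes. A CCAAT box was found in 4 of the 9, those of Tcp1, Cct3, Cct6a and Cct7, against 37.4% of all windows. The TATA box TATAAA was found in 0 of the 9 (13.6% of all windows) and the E-box CACGTG in 0 (7.15%). The head-to-head core of a heat shock element, TTCNNGAA, was found in 2 of the 9, 1 of Cct5 and that of Cct6a (8.52% of all windows), and the tail-to-tail core, GAANNTTC, in 1, of Cct2 (7.86%). These are matches of letters in a window and say nothing of binding. Their part in the compartment difference was not tested.

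The 8 genes lie on 8 different autosomes in the deposited table (GRCm38). Tcp1 (ENSMUSG00000068039.13) is at chr17:12915701-12925067, Cct2 (ENSMUSG00000034024.8) at chr10:117051001-117063814, Cct3 (ENSMUSG00000001416.13) at chr3:88297116-88321767 and Cct4 (ENSMUSG00000007739.10) at chr11:22990519-23003780. Cct5 (ENSMUSG00000022234.15) is at chr15:31590800-31601804, Cct6a (ENSMUSG00000029447.11) at chr5:129786998-129846371, Cct7 (ENSMUSG00000030007.8) at chr6:85451514-85468475 and Cct8 (ENSMUSG00000025613.13) at chr16:87483326-87495873. The values are sums over all exons of a gene. Exons of 4 of them overlap exons of a gene on the other strand: Tcp1 with Acat3 (571 bases) and Mrpl18 (141 bases), Cct6a with Psph (452 bases), Cct7 with Pradc1 (214 bases) and Cct8 with Usp16 (192 bases). Whether strand was used in counting is not given in the sources used here, so reads in those stretches cannot be assigned with certainty. Of all 50-base stretches of its transcripts, Tcp1 shares 6.17% with genes elsewhere, Cct6a 2.92%, Cct3 0.793%, Cct7 0.466% and Cct4 0.364%, and Cct2, Cct5 and Cct8 share 0.

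Genes that work with TRiC moved in both directions. Of the 6 prefoldin subunits, 4 were higher in growth cones in WT and the same 4 in KO, and 0 were lower, where 23.1% of all genes were called higher in WT and 21.6% in KO. Their median log2 fold change was 1.44 in WT and 1.40 in KO. Pfdn1, a beta-type prefoldin subunit, stood at 113, 61.2, 65.0, 79.6 and 65.9 CPM in WT somata and at 281, 351, 274, 167 and 178 CPM in WT growth cones. All growth cone libraries were above all soma libraries, and the log2 fold change was 1.74 ± 0.25 in WT (SE; adjusted p = 0.000156) and 1.72 ± 0.23 in KO (adjusted p = 0.000132). Pfdn5, an alpha-type subunit also known as a binding partner of the Myc protein, went from 74.7 ± 15.7 to 224 ± 56.3 CPM in WT, a log2 fold change of 1.63 ± 0.21 (adjusted p = 8.41e-05), and by 1.67 ± 0.21 in KO. Pfdn4 rose by 1.76 ± 0.27 in WT and 1.95 ± 0.29 in KO, and Pfdn2 by 1.25 ± 0.17 and 1.12 ± 0.20 (log2, SE), both beta-type subunits. Vbp1, the other alpha-type subunit, had log2 fold changes of 0.10 ± 0.19 in WT and -0.16 ± 0.18 in KO and passed in neither. Pfdn6 had 0.21 ± 0.20 in WT (adjusted p = 0.431) and 0.50 ± 0.18 in KO (adjusted p = 0.0505).

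Of the 4 phosducin-like genes, 3 passed the low-count filter. Pdcl, whose protein acts with TRiC in building G protein beta-gamma dimers, fell with the subunits: it stood at 91.0, 89.1, 101, 79.8 and 101 CPM in WT somata and at 7.78, 29.7, 32.8, 22.5 and 35.4 CPM in WT growth cones. Its log2 fold change was -1.81 ± 0.34 in WT (SE; adjusted p = 0.00113) and -1.44 ± 0.30 in KO (adjusted p = 0.00252). Txndc9, a phosducin-like inhibitor of TRiC with a thioredoxin fold, rose by 0.90 ± 0.16 in WT (adjusted p = 0.000738) and 0.96 ± 0.21 in KO (adjusted p = 0.00380). Pdcl3 had 0.43 ± 0.18 in WT (adjusted p = 0.0681) and 0.46 ± 0.21 in KO (adjusted p = 0.103). It passed in WT under each of the other 3 scalings tried. Pdcl2 did not pass the low-count filter.

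**Figure D3:**
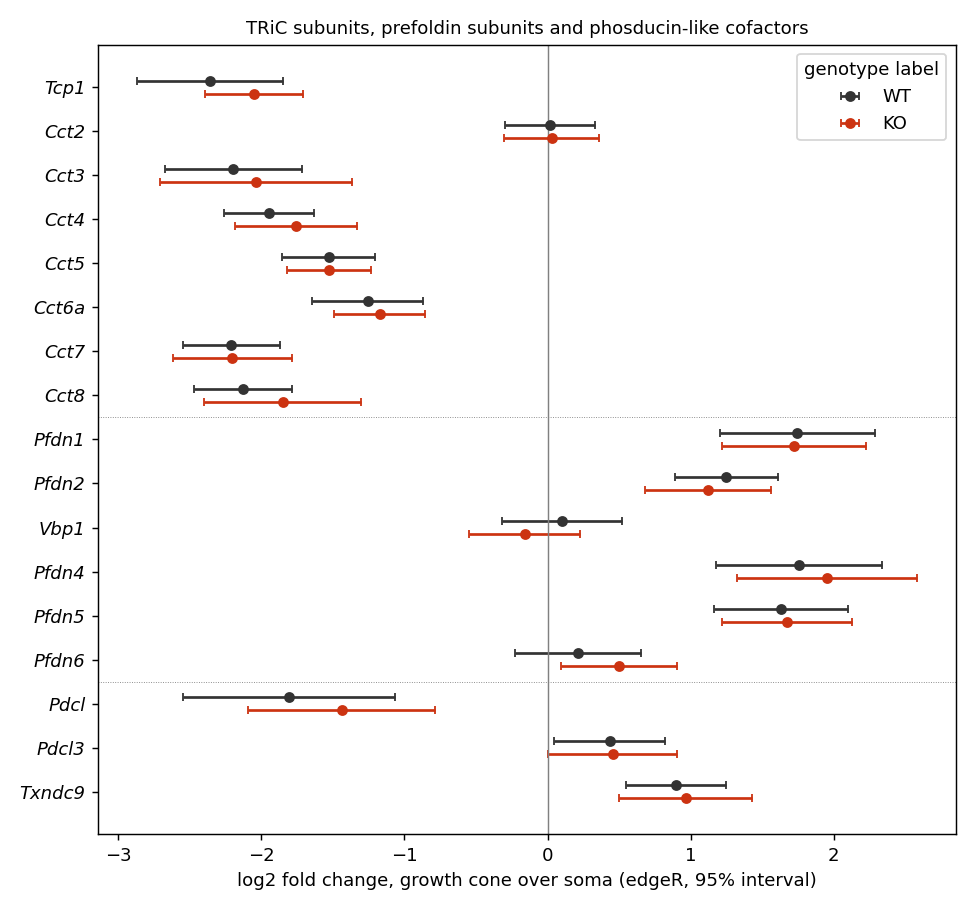
Log2 fold change of growth cones over somata with 95% intervals (edgeR) for the 8 TRiC subunits (top), 6 prefoldin subunits (middle) and 3 phosducin-like cofactors (bottom), in WT (black) and in the libraries labelled KO (red). Points left of 0 are lower in growth cones; 7 TRiC subunits lie between -2.36 and -1.17, Cct2 at 0.02 and 0.03, and 4 prefoldin subunits between 1.12 and 1.95.

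Downstream of TRiC, tubulin folding cofactors join alpha- and beta-tubulin into dimers. Of 7 such genes, 3 were higher and 1 lower in WT growth cones, and 2 were higher and 1 lower in KO. Of all genes tested, 23.1% were called higher and 19.7% lower in WT, and 21.6% and 17.0% in KO, and these shares are the background for every list below. Tbca, which holds beta-tubulin after release, rose by 1.97 ± 0.19 in WT and 1.92 ± 0.27 in KO, and Arl2, a small GTPase of this pathway, by 0.98 ± 0.19 and 1.03 ± 0.19. Tbcd, a large cofactor that assembles the dimer with Arl2, fell (-2.71 ± 0.66 and -2.86 ± 0.27; log2, SE). Of 22 genes for TRiC clients (actins, tubulins, G protein beta subunits, WD-repeat proteins and others), 13 were lower and 3 higher in WT, and 11 lower and 4 higher in KO, with a median of -0.89 and -0.70 against 0.07 and 0.11 for all genes tested. The 3 with the lowest p were tubulin genes: Tubb2a fell, with log2 fold changes of -2.54 ± 0.13 in WT and -2.32 ± 0.12 in KO, Tuba1a fell with -2.12 ± 0.12 and -1.95 ± 0.17, and Tubb5 with -1.93 ± 0.13 and -1.79 ± 0.15.

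Other chaperone genes were also mixed. Among the relatives of TRiC, Hspd1, the chaperonin of mitochondria, fell, with log2 fold changes of -1.24 ± 0.19 in WT and -1.13 ± 0.17 in KO, whereas Hspe1, the small lid protein that works with it, rose by 1.32 ± 0.19 and 1.62 ± 0.25 (log2, SE). Mkks, a chaperonin-like protein of the cilium, had 0.32 ± 0.53 and 0.01 ± 0.46 and passed in neither. These 2 calls, 1 higher and 1 lower, were the only ones among 5 tested relatives in each genotype, beside 23.1% higher and 19.7% lower of all genes in WT, and Cct6b, the second zeta subunit gene, did not pass the low-count filter. In the cytosolic heat shock system 9 of 22 tested genes were lower and 3 higher in WT, and 11 lower and 3 higher in KO, where 19.7% and 17.0% of all genes were lower and 23.1% and 21.6% higher. Their median log2 fold change was -0.44 in WT and -0.55 in KO. Hspa8, the constitutive chaperone of its class, fell (-2.68 ± 0.26 and -2.53 ± 0.16), and Stip1, the adaptor between the main heat shock chaperones, with -1.55 ± 0.25 and -1.38 ± 0.23. Bag1, a nucleotide exchange factor, rose by 1.88 ± 0.17 and 2.06 ± 0.19. Of 13 chaperones of the endoplasmic reticulum and mitochondria, 9 were lower in WT, 8 in KO, and 0 were higher, against the same shares of all genes. Hspa5 fell (-2.63 ± 0.24 and -2.28 ± 0.33), Pdia3, a disulfide isomerase, with -2.25 ± 0.24 and -2.12 ± 0.18, and the mitochondrial Hspa9 with -1.29 ± 0.18 and -1.28 ± 0.17.

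The compartment difference moved with gene length and level over all genes. The TRiC and prefoldin genes stand at different places on length, but mostly share the top quartile of level. The shortest quartile by coding length (99 to 864 bases) holds all 6 prefoldin genes: there the median log2 fold change was 0.86 in WT, with 44.7% of genes higher and 10.9% lower. The third quartile (1401 to 2253 bases) holds the 7 subunit genes with a coding length, Cct2 included, which span only 1605 to 1668 bases: its median was -0.53, with 9.63% higher and 29.2% lower. By mean level, these 7 genes were in the top quartile, where 47.1% of genes were lower and 25.6% higher in WT, and 44.1% and 26.2% in KO. Pfdn1, Pfdn2, Pfdn5 and Vbp1 were in that quartile too, and Pfdn4 and Pfdn6 in the third, in both genotypes. These quartiles are broad. Among the subunit genes, Cct2 had the shortest deposited length (2557 bases, the others 2766 to 6778). It also had the lowest mean level in WT somata (245 CPM, the others 533 to 990). The part of length and level in the results, that of Cct2 included, was not tested.

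**Figure D4:**
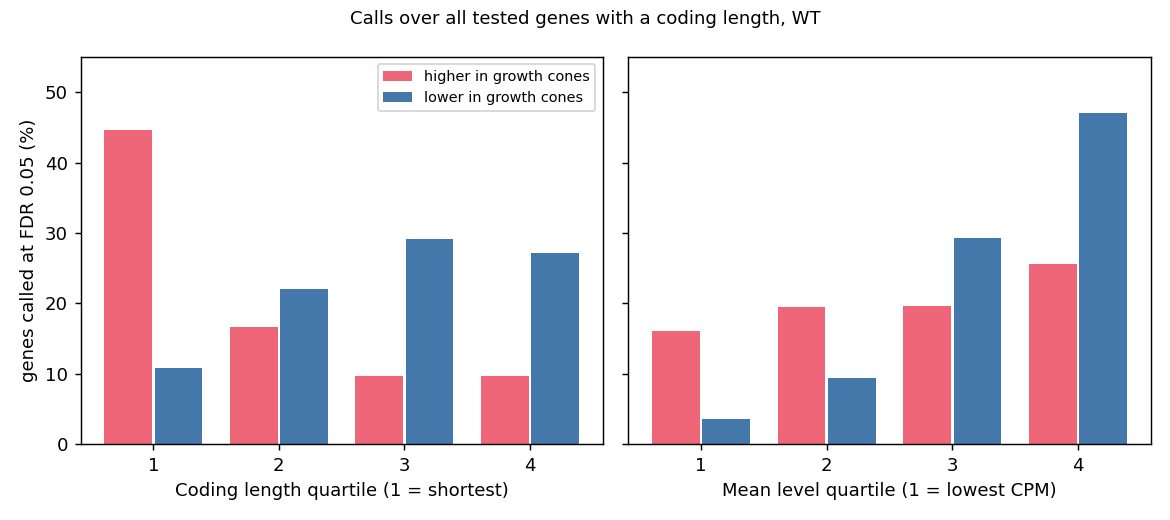
Percent of tested genes called higher (red) or lower (blue) in WT growth cones at FDR 0.05, by quartile of coding length (left) and of mean CPM (right), over the 12647 tested genes with a coding length. The 6 prefoldin genes are in the shortest quartile (44.7% higher) and 7 TRiC genes in the third (29.2% lower).

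No subunit gene was called between the genotype labels. In somata, 0 of 8 passed at FDR 0.05, where 109 of 14911 genes, 0.731%, were called. Cct5 had the lowest unadjusted p, 0.0665: it stood at 804 ± 51.7 CPM in WT and 713 ± 75.1 CPM in the libraries labelled KO, a log2 fold change of -0.18 ± 0.09 (SE; 95% interval -0.37 to 0.01; adjusted p = 0.647). The WT and KO soma values of Cct5 overlapped. The largest estimate the other way was that of Cct7, 0.13 ± 0.10 (95% interval -0.09 to 0.36). Over the 8 genes the 95% intervals ran from -0.37 to 0.36, so larger log2 changes in somata lie outside every interval. Interneuron markers, 9 genes, summed to 122 to 202 CPM in WT somata and 410 to 545 CPM in KO somata. Of the 8 that were tested, 1 was called, and their log2 fold changes ran from -1.15 to 2.06 with a median of 0.20. Their part in these estimates was not tested.

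In growth cones, 0 of 8 passed, where 0.0% of 15419 genes were called by edgeR and DESeq2 called 111. By edgeR, 329 genes had an unadjusted p under 0.05, fewer than evenly spread p-values would give. The estimates ran from -0.19 ± 0.18 for Cct5 (269 ± 52.9 CPM in WT and 234 ± 38.4 CPM in KO) to 0.27 ± 0.27 for Cct8 (173 ± 36.7 and 209 ± 68.9 CPM), all with an adjusted p of 0.999. DESeq2 called none of the 8. Intervals were wider than in somata, reaching from -0.59 for Cct5 to 0.91 for Cct3. In both compartments the WT and KO values of all 8 genes overlapped. The share of all genes with such overlap is not given here, so this describes the 8 genes only.

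The interaction, which tests whether the compartment difference itself depends on the genotype label, was called for 0 of 8 subunits, where 7 of 17645 genes, 0.0397%, were called. Its estimates ran from -0.03 for Cct5 to 0.27 for Tcp1, with adjusted p = 1.00 for all. Tcp1 was -2.36 in WT and -2.05 in KO, and Cct8 was -2.13 and -1.85. For Cct5, at -1.53 in both, and Cct7, at -2.21 and -2.20, the estimates were close.

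**Figure D5:**
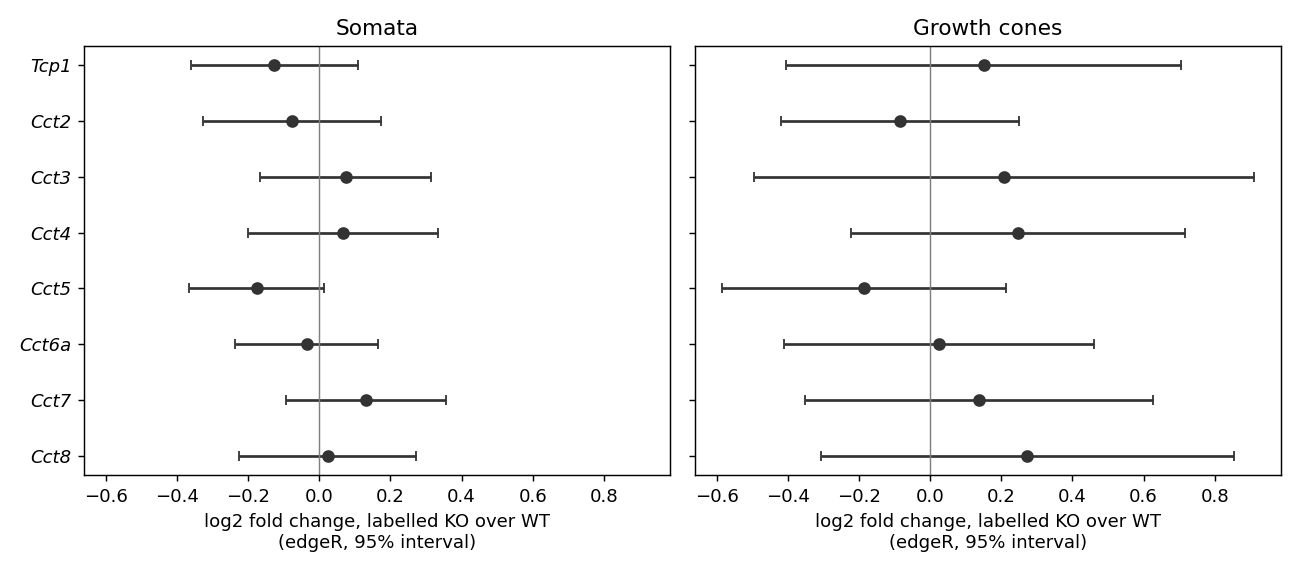
Log2 fold change of libraries labelled KO over WT, with 95% intervals (edgeR, n = 5 per group), for the 8 subunit genes in somata (left) and growth cones (right). All intervals include 0; those of somata stay within -0.37 and 0.36 and those of growth cones reach 0.91.

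The genes whose pattern over the 20 libraries was most like the mean of the 8 subunit genes were found by the root-mean-square difference of centred log2 CPM, among 7658 genes of at least 20 CPM. Ldha, a lactate dehydrogenase subunit, was closest at 0.140 log2 units, followed by Atp5b, a subunit of the mitochondrial ATP synthase, at 0.155, Stmn1, a tubulin-binding stathmin, at 0.161, Tubb5 at 0.163 and Ywhaz, an adaptor protein, at 0.177. Ldha stood at 1333 ± 234 CPM in WT somata and 404 ± 51.5 CPM in WT growth cones. Among the subunits themselves Cct4 was closest to their mean, at 0.226, and Cct2 farthest, at 0.857. These 5 genes lay nearer to the subunit mean than any single subunit did. The 20 points share the compartment difference and the scaling, and the mean is an average over 8 genes while each other pattern is that of 1 gene.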

How the data were processed

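Raw gene counts of 20 libraries were deposited by the authors as 1 table, without scaling between libraries. The submitters' processing notes name Trimmomatic 0.39, STAR 2.7.1a and featureCounts 1.5.0. They also name the build GRCm39, whereas the deposited coordinates are those of GRCm38: the exons of 54435 of 55487 genes (98.1%) are identical to those in GENCODE M21, which gave symbols for 55141 genes. Per the labels' protocols, SMART-seq v4 cDNA went into Nextera XT libraries. Use of strand and treatment of multiply mapping reads are not given in the sources used here. Entries that name no gene: 0. The protocol names no molecular identifiers, so counts are reads.

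Groups come from library titles. Each comparison was fitted over all genes with edgeR 4.0.16 (R 4.3.3): filterByExpr with a minimum count of 10, TMM scaling, quasi-likelihood F test, Benjamini-Hochberg adjustment, FDR 0.05. Only the 2 groups compared entered a fit, and all 4 groups entered the interaction. CPM were scaled by TMM over the 20 libraries. SE were derived from the F statistic. Every adjusted p is from this test unless another is named. The code was tested on simulated data. Bcl11b was compared on log2(CPM + 0.5) over 252 regroupings. No pair of libraries agreed within sampling noise (chi-square per degree of freedom of at least 52.7).

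Alternatives were other scalings (DESeq2 size factors, upper quartile, library totals), DESeq2 1.42.0 (Wald test), no low-count filter, each library left out, all 4 groups in 1 fit, and experiment number as a block. Coding length for levels per kb was added after seeing the data. The members and lists were chosen with earlier results of these data known. All 8 subunits, 6 prefoldin and 4 phosducin-like genes are named, and from each other list the 3 genes with the lowest p in the WT compartment comparison. The 5 genes of most similar pattern are named by the smallest root-mean-square difference. Promoter windows are from RefSeq (GRCm38.p6) and matched 7 of 8 genes.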

Additional observations from a re-analysis of the deposited data

Results flagged for a closer look

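Single libraries far from the rest of their group were looked for in 36 groups of 5 (the 8 subunit genes and Bcl11b in each of the 4 groups), where chance alone marks about 1 group in 20. The WT soma library of experiment 14 had the lowest Cct5 level, 713 CPM, with the other 4 at 815 to 840 CPM. Without it, the WT compartment difference of Cct5 was -1.56 and the somatic genotype difference -0.22 on the log2 scale (adjusted p = 0.479). The KO growth cone library of experiment 8 had the lowest Cct8 level, 90.1 CPM, with the other 4 at 220 to 270 CPM. Without it, the KO compartment difference of Cct8 was -1.67 (adjusted p = 2.05e-05), the growth cone genotype difference 0.46 (adjusted p = 1.00) and the interaction 0.43 (adjusted p = 0.654).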

How the results depend on the processing

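The count of subunit genes called stayed at 7, 7, 0, 0 and 0 (compartment in WT, in KO, genotype in somata, in growth cones, interaction) in all of the 16, 16, 17, 17 and 26 alternatives run. Upper-quartile scaling moved the all-gene median of the log2 fold change from 0.07 to 0.28 in WT and from 0.11 to 0.31 in KO, and library totals moved it to 0.22 in both. Less that median, the 7 genes that fell lay between -2.62 and -1.28 under 7 scalings or fits, and Cct2 between -0.26 and -0.05.

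Over all genes, those called for genotype in somata (109) were 561 by DESeq2, 30 in the fit of all 4 groups and 67 to 107 with 1 library left out (67 without KO soma and 68 without WT soma experiment 22). For growth cones (0) they were 111 by DESeq2 and 7 in the fit of all 4 groups, and for the interaction (7) 501 by DESeq2 and 5 to 12 with 1 library left out (12 without WT and 11 without KO growth cone experiment 7). With experiment number as a replicate block, somata gave 34 and the interaction 0. Libraries with the same number correlated at 0.01 to 0.13 in somata and 0.03 to 0.11 in growth cones in their deviations from group means. The labels do not say that a number marks a shared litter or batch, and most of these correlations were below 0.1. The numbers were therefore not taken to pair the samples. Even so, 7 of 9 WT libraries correlated best with their own number among 5 KO libraries, more than random matching would give. The main genotype tests and the Bcl11b permutation thus leave out a pairing to which these data point. The compartments share no number, so no block could be fitted there. The cause of these shifts was not tested. Without length scaling the Cct2 share was 4.48% and 4.28% in WT and KO somata and 14.8% and 13.4% in WT and KO growth cones.

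Sign changes were seen only in differences that no setting called. The Cct2 compartment difference was -0.025 in WT without the filter and -0.028 in the fit of all 4 groups, and -0.059 and -0.052 in KO. With 1 library left out it ran from -0.048 to 0.13 in WT and from -0.14 to 0.091 in KO. Vbp1 was 0.038 in KO under upper-quartile scaling and -0.052 to 0.26 in WT with 1 library left out. Mkks was -0.080 in KO without the filter and -0.068 in the fit of all 4 groups, and with 1 library left out -0.032 to 0.55 in WT and -0.29 to 0.24 in KO. Genotype differences with 1 library left out were -0.076 to 0.025 for Cct6a and -0.044 to 0.10 for Cct8 in somata, and -0.11 to 0.12 for Cct6a and -0.087 to 0.23 for Cct7 in growth cones, where Cct6a was -0.00089 under library totals. The interaction with 1 library left out was -0.13 to 0.069 for Cct2, -0.065 to 0.33 for Cct3, -0.023 to 0.28 for Cct4, -0.11 to 0.055 for Cct5, -0.10 to 0.15 for Cct6a and -0.23 to 0.064 for Cct7. Bcl11b in growth cones was -0.16 to 0.090. Pfdn6 in KO passed in 6 of 16 alternatives, and Pdcl3 in 6 of 16 in WT and 2 of 16 in KO.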
